A study of Homo sapiens with 9 samples.

Results

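The genes described here are 58 nucleolar ribosome biogenesis factors, read from an RNA sequencing table of 25084 genes. They were chosen by name, as the rows of the table whose gene symbol is one of 58 listed proteins of ribosome assembly, and all 58 were found. The list was chosen with earlier results of these data known. The cells were LAN5, an established human neuroblastoma line. They received 1 of 3 siRNAs (short double-stranded RNAs through which the cell cuts messages of the same sequence) by electroporation: siCTR, a control, siMYCN, against the transcription factor gene MYCN, or siHAND2, against the transcription factor gene HAND2. Total RNA was taken 72 h later, and each siRNA gave 3 libraries. All 3 groups went through the same electroporation and medium, each target was knocked down with 1 siRNA design, and the labels do not say whether the 3 libraries of a group came from separate cultures, so p-values measure the spread between these samples only.

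Ribosomes are assembled in the nucleolus. RNA polymerase I transcribes a long precursor RNA there, small nucleolar RNA-protein particles (snoRNPs) guide its modification and folding, and nucleases and helicases cut and remodel it while ribosomal proteins join. The U3 snoRNP and the UTP proteins build the small subunit processome around the precursor, the PeBoW complex and many GTPases and helicases mature the large subunit, and the exosome trims RNA ends. MYC proteins, MYCN among them, are known as activators of these genes in growing cells and bind the DNA letters CACGTG, the canonical E-box, while HAND2 is a helix-loop-helix factor of the sympathetic lineage.

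RefSeq (GRCh38.p14) gave windows of 250 bases before to 50 bases after the annotated start for 48 of the 58 genes. No window was given for DDX18, DDX52, MPHOSPH10, NOLC1, NOP58, BOP1, RRP12, RRS1, TCOF1 and URB2. The letters CACGTG, which read the same on both strands, stood in the windows of 23 of the 48 genes (47.9%). Of the 14495 genes tested below, 10364 had a window and 1325 of these (12.8%) held the motif. So did 22 of 66 other ribosome biogenesis factors (33.3%) and 8.77% of all 27305 genes with a window. Counted by window and not by gene, the share was 7.26% of 35116. The stretches below, each from 100 bases before the RefSeq start to the start or to the end of the motif after it, are shown so that the letters and their surroundings can be read in genes that were lower in both knockdowns. They are the 10 with the largest fall in siMYCN among 15 such genes with the motif from 100 bases before to 30 bases after the start, so its nearness to the start in them follows from the choice. They are printed 5′ to 3′ on the strand of the gene, with each CACGTG in capitals.
EXOSC5: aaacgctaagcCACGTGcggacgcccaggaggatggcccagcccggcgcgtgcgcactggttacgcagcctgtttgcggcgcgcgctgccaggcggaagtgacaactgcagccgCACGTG
RRP9: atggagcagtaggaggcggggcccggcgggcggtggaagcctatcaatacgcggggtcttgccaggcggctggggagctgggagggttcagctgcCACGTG
UTP20: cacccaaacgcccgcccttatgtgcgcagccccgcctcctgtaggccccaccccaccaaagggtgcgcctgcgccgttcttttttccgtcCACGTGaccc
FBL: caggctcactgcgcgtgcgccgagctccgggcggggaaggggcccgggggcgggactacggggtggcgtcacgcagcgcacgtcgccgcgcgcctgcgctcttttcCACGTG
NAT10: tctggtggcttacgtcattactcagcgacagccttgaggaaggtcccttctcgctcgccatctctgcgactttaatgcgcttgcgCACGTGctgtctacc
GNL3: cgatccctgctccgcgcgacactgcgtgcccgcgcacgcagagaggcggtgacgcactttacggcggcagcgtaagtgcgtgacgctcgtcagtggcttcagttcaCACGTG
NOC3L: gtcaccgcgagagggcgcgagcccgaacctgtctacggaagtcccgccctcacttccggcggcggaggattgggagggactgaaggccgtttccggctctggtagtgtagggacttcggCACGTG
DDX21: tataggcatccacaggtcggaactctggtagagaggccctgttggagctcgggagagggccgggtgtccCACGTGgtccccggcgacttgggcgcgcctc
IMP4: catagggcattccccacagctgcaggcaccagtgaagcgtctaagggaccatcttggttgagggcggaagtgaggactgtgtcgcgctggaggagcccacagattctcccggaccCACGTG
WDR43: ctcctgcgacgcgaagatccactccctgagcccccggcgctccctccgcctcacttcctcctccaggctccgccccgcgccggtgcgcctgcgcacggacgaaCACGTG
These stretches lie at chr19:41397340-41397459 (minus strand) for EXOSC5, chr3:51941904-51942004 (minus strand) for RRP9, chr12:101280005-101280104 (plus strand) for UTP20, chr19:39846368-39846479 (minus strand) for FBL, chr11:34105529-34105628 (plus strand) for NAT10, chr3:52685932-52686043 (plus strand) for GNL3, chr10:94362915-94363039 (minus strand) for NOC3L, chr10:68956547-68956646 (plus strand) for DDX21, chr2:130342797-130342917 (plus strand) for IMP4 and chr2:28894567-28894675 (plus strand) for WDR43, all in GRCh38.p14. EXOSC5 held 2 copies, 1 with its first base at -89 and 1 at the end of the stretch. FBL, GNL3, NOC3L, IMP4 and WDR43 carried a copy just after the start, RRP9 a copy across it, and UTP20, NAT10 and DDX21 a copy just before it. The 48 genes had 56 windows, as some had more than 1 annotated start. Over all 23 genes CACGTG stood at 27 positions, each counted from the start of its window, and 4 genes had more than 1. A copy seen from more than 1 start of a gene would count more than once. The first base of a copy lay between -241 and 43, counted from the start. At least 1 copy within 100 bases before to 50 bases after the start was present in 22 of the 23 genes (95.7%), against 837 of 1325 tested genes with the motif (63.2%). The related letters CACGCG or CGCGTG stood in the windows of 15 of the 48 genes (31.2%), against 23.2% of the tested genes with a window. CAGATG or CATCTG stood in those of 3 of the 48 genes (6.25%), against 13.4%. A match is a description of the letters and not a measured binding site.

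**Figure D1:**
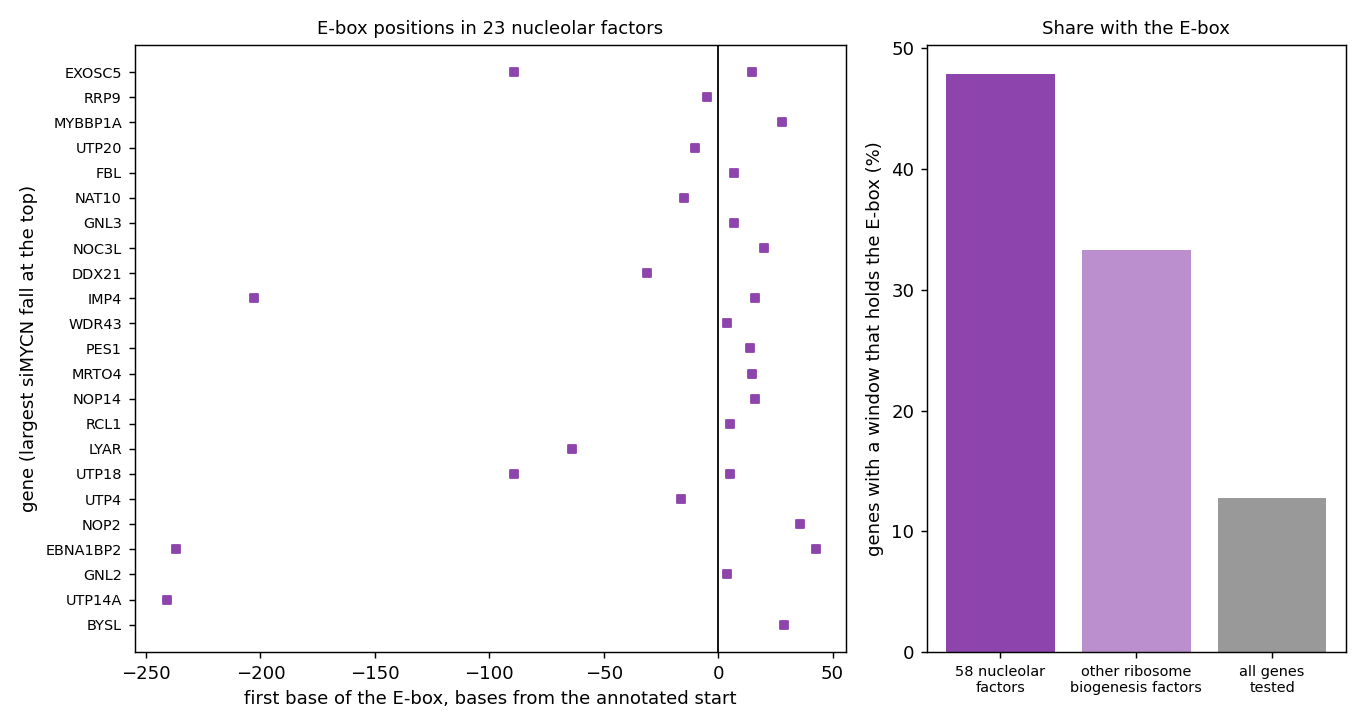
Left, position of every CACGTG copy in the windows of the 23 genes that hold one, with genes ordered by their fall in siMYCN. The position is the first base of the copy, in bases from the RefSeq start of that window (negative before it). A copy seen from several starts of a gene would appear at several positions. Right, share of genes with a window that holds the motif, 47.9% for the nucleolar factors, 33.3% for other ribosome biogenesis factors and 12.8% for all tested genes. A copy within 100 bases before to 50 bases after the start is seen in 22 of the 23 genes.

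The values are CPM, in which the reads of a library are scaled to 1 fixed total, so they are shares of a library and not amounts per cell. Low values fell on steps that put 21.1 M to 32.7 M assigned reads in a library, which makes 1 CPM worth 21.1 to 32.7 reads. Replicates correlated at 0.994 to 0.998 on the log2 scale across genes of at least 5 CPM, where genes are not independent replicates. MYCN itself was at 1848, 1894 and 1786 CPM with siCTR, 1338, 1245 and 1285 CPM with siMYCN and 898, 969 and 877 CPM with siHAND2, or 70.0% of the siCTR mean in siMYCN and 49.6% in siHAND2, with a direct difference between the knockdowns of -0.50 on the log2(CPM + 1) scale (limma, adjusted p = 6.21e-07). MYCN mRNA was thus lower in the siHAND2 libraries than in the siMYCN libraries. HAND2 was at 516, 499 and 489 CPM with siCTR, 588, 557 and 568 CPM with siMYCN and 268, 267 and 280.4 CPM with siHAND2, 54.2% of the siCTR mean in siHAND2, and it rose by 0.19 in siMYCN (limma, adjusted p = 0.00183). All 12 neuroblastoma markers were detected (lowest mean 2.82 CPM), and 7 of 9 markers of other cell types (PTPRC, CD68, PECAM1, VWF, SOX10, S100B and KRT8) were below 1 CPM. The remaining 2 were EPCAM and PDGFRB, a mesenchymal receptor gene whose mean was 89.8 CPM in siCTR, 98.8 CPM in siMYCN and 179 CPM in siHAND2.

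As a sum, the nucleolar factors were lower in both knockdowns than in siCTR, and lowest in siMYCN. Their summed level was 7355 ± 91.4 CPM in siCTR, 5729 ± 124 CPM in siMYCN and 6312 ± 104 CPM in siHAND2 (SD, n = 3). The siCTR libraries summed to 7449, 7349 and 7266 CPM, the siMYCN libraries to 5834, 5591 and 5760 CPM, and the siHAND2 libraries to 6428, 6225 and 6284 CPM. The 3 groups did not overlap. NPM1 and NCL, both abundant, made up part of that sum, and without them it was 4433 ± 33.7 CPM in siCTR, 3563 ± 52.4 CPM in siMYCN and 3874 ± 45.7 CPM in siHAND2. In each siMYCN library 56 or 57 of the 58 genes lay below their siCTR mean, and in each siHAND2 library 51 or 52. The siCTR libraries themselves had 22, 38 and 27 genes below that mean. By group, the log2 fold change was below 0 for 57 of the 58 in siMYCN and 53 in siHAND2. Beside this stand 5431 and 6012 of all 14495 tested genes. In bulk RNA, fewer cells of a kind and less RNA per cell cannot be told apart.

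**Figure D2:**
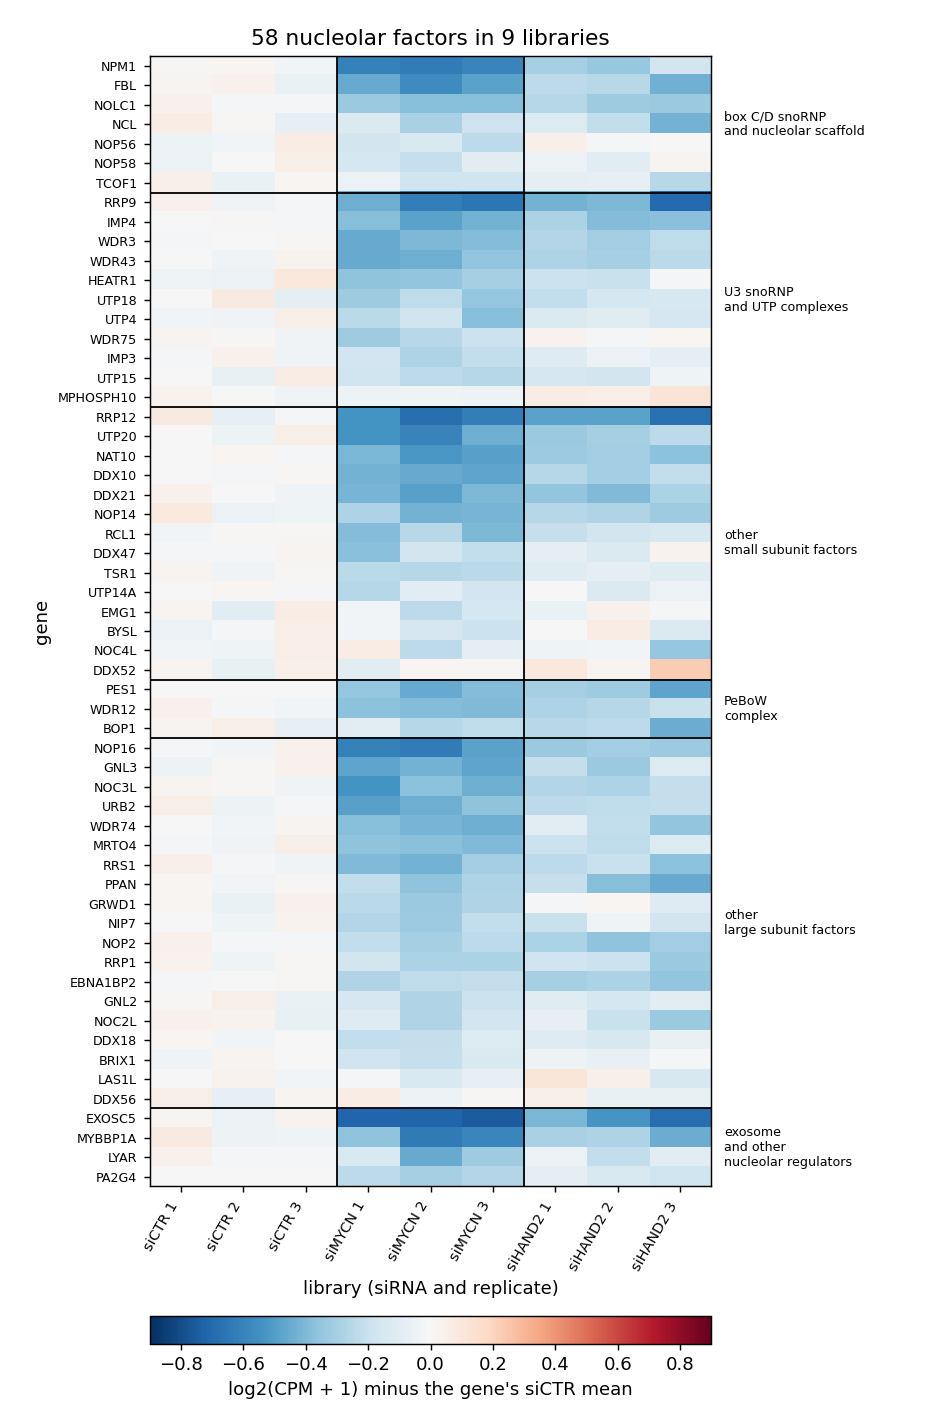
Each row is 1 of the 58 genes, grouped by role, and each column 1 of the 9 libraries. The colour gives log2(CPM + 1) minus the mean of that gene over the siCTR libraries. The siMYCN and siHAND2 columns are below 0 for 51 to 57 of the 58 genes, and the siCTR columns for 22, 38 and 27.

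Differences were tested with limma on log2(CPM + 1), in 1 fit of all 9 libraries and 14495 genes that did not pair replicates. Benjamini-Hochberg adjusted p-values were taken over that whole table, with a threshold of 0.05. Fold changes below are differences on that scale, given as log2 values with the standard error of limma. All 58 nucleolar factors were expressed well enough to be tested, with means from 16.5 CPM (NOP16) to 1444 CPM (NPM1) and a median of 55.9 CPM. In siMYCN against siCTR, 50 of the 58 fell (86.2%), beside 11.4% of all tested genes that were called lower and 35.9% called either way. None rose in limma, while 24.5% of all tested genes were called higher. At an unadjusted limma p under 0.05 there were 52 lower and 0 higher, beside 2047 lower and 4440 higher of all 14495 tested genes. The median log2 fold change of the nucleolar factors was -0.28, beside 0.06 for all genes, and their range was -0.73 to 0.01. All siMYCN libraries lay below all siCTR libraries for 51 of the 58, as for 16.1% of all tested genes.

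In siHAND2 against siCTR, 34 of the 58 fell (58.6%), beside 11.8% of all tested genes called lower and 29.9% called either way. None rose in limma, with 18.1% of all tested genes called higher. At an unadjusted limma p under 0.05 there were 40 lower and 0 higher, beside 2256 lower and 3625 higher of all 14495 tested genes. The median was -0.21, beside 0.04 for all genes, and the range -0.55 to 0.11. All siHAND2 libraries lay below all siCTR libraries for 42 of the 58, as for 16.6% of all tested genes. MPHOSPH10, a U3 snoRNP protein, was the only 1 whose siHAND2 libraries all lay above the siCTR libraries, at 58.6, 58.1 and 60.5 CPM against 57.2, 55.7 and 54.8 CPM (log2 fold change 0.08, limma adjusted p = 0.192), as for 25.8% of all tested genes, and it is named because its values were seen. The comparisons of siMYCN and of siHAND2 with siCTR share the siCTR libraries, so their values are given side by side and not as independent evidence of each other.

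The direct comparison of the knockdowns tests whether they differ. In siHAND2 against siMYCN, 24 of the 58 were higher in siHAND2 (41.4%), beside 11.4% of all tested genes called higher and 26.9% called either way. None was lower in limma, with 15.5% of all tested genes called lower. At an unadjusted limma p under 0.05 there were 34 higher and 0 lower, beside 2476 higher and 3052 lower of all 14495 tested genes. The median difference was 0.13, beside -0.01 for all genes, and the range -0.12 to 0.34. The siHAND2 libraries all lay above the siMYCN libraries for 34 of the 58, as for 17.1% of all tested genes. The other way round was seen for EBNA1BP2, a large-subunit factor named here because its values were seen, at 23.2, 23.4 and 22.2 CPM in siHAND2 and 23.6, 24.3 and 24.6 CPM in siMYCN, as for 21.6% of all tested genes (log2 difference -0.07, limma adjusted p = 0.332).

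**Figure D3:**
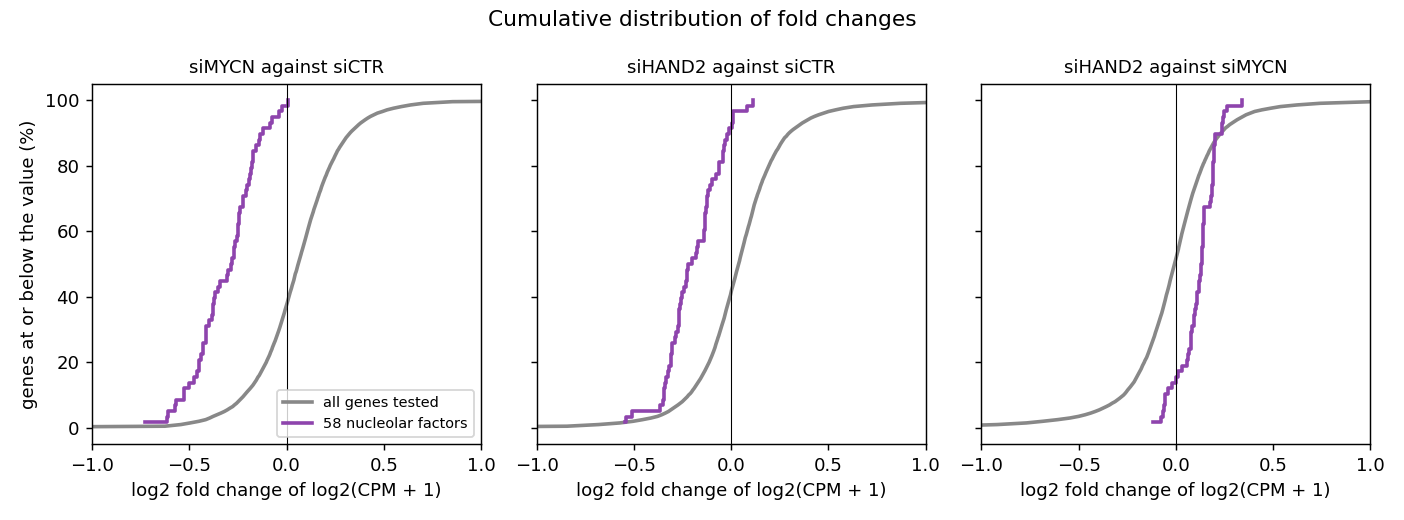
Cumulative share of genes (vertical axis, %) at or below each log2 fold change (horizontal axis) in the 3 comparisons, for the 58 nucleolar factors and for all 14495 tested genes. At the medians, the curve of the nucleolar factors is to the left in both knockdowns against siCTR (-0.28 and -0.21, against 0.06 and 0.04). It is to the right at the median in siHAND2 against siMYCN (0.13 against -0.01). The curves cross in the tails. In siHAND2 against siMYCN the highest nucleolar factor is at 0.34, and the 95th percentile of all genes is at 0.35.

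The box C/D snoRNPs methylate ribosomal RNA. FBL (fibrillarin, chr19:39834458-39846379, GRCh38 as all gene positions here), their methyltransferase, was at 135, 137 and 127 CPM with siCTR, 96.7, 89.2 and 94.5 CPM with siMYCN and 112, 112 and 98.2 CPM with siHAND2. The 3 groups did not overlap, with siCTR highest and siMYCN lowest. FBL fell by 0.50 ± 0.05 in siMYCN (limma, adjusted p = 3.33e-06) and by 0.31 ± 0.05 in siHAND2 (adjusted p = 0.000455), and it was 0.20 higher in siHAND2 than in siMYCN (adjusted p = 0.0128). That last call was lost without siMYCN replicate 2 (0.16, adjusted p = 0.0627), without siHAND2 replicate 2 (0.17, adjusted p = 0.0639) and with no intensity trend (adjusted p = 0.0537). NOP56 and NOP58 are the core proteins that join FBL on the same particles.

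NOP56 (chr20:2652593-2658393) was at 214, 218 and 231 CPM with siCTR, 197, 201 and 188 CPM with siMYCN and 228, 218 and 222 CPM with siHAND2. Its siMYCN libraries lay below both other groups, and its siHAND2 libraries lay within the siCTR range. NOP56 fell by 0.18 ± 0.04 in siMYCN (limma, adjusted p = 0.00426) and had a log2 fold change of 0.01 in siHAND2, with a 95% interval of -0.08 to 0.10 (adjusted p = 0.869), and the direct difference was 0.19 (adjusted p = 0.00353). NOP58 (chr2:202265736-202303661) was at 115, 119.5 and 125 CPM with siCTR, 107, 104 and 111 CPM with siMYCN and 116, 112 and 122 CPM with siHAND2. Its siMYCN libraries were again the lowest, and its siHAND2 and siCTR libraries overlapped. NOP58 fell by 0.16 ± 0.05 in siMYCN (limma, adjusted p = 0.0143), a call lost without siCTR replicate 3 (-0.13, adjusted p = 0.0755) or siMYCN replicate 2 (-0.13, adjusted p = 0.0633), and in siHAND2 its log2 fold change was -0.04 (95% interval -0.14 to 0.06, adjusted p = 0.560).

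NPM1 (nucleophosmin, chr5:171387116-171411137), an abundant nucleolar chaperone and scaffold, was at 1754, 1763 and 1711 CPM with siCTR, 1146, 1125 and 1152 CPM with siMYCN and 1419, 1373 and 1551 CPM with siHAND2. The 3 groups were well apart, siCTR highest and siMYCN lowest. NPM1 fell by 0.61 ± 0.05 in siMYCN, to 65.5% of the siCTR mean (limma, adjusted p = 1.11e-07), and by 0.27 ± 0.05 in siHAND2, to 83.1% (adjusted p = 0.000364). The difference between the knockdowns, 0.34 ± 0.05 (adjusted p = 3.61e-05), was the largest among the 58 genes. With quantile normalization these values were -0.38, -0.15 and 0.22, all still past the threshold (limma, adjusted p = 1.90e-05, 0.0159 and 0.00138). RefSeq names 50 pseudogenes after NPM1, of which 11 are in the table with a summed mean of 11.0 CPM, and how reads shared with them were counted is not given in the sources used here.

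NCL (nucleolin, chr2:231453531-231483641), the other abundant scaffold protein, was at 1231, 1189 and 1116 CPM with siCTR, 1079, 960.04 and 1035 CPM with siMYCN and 1083, 1011 and 877 CPM with siHAND2. All libraries of both knockdowns lay below the siCTR libraries, and the knockdowns overlapped. NCL fell by 0.20 ± 0.07 in siMYCN (limma, adjusted p = 0.0249) and by 0.26 ± 0.07 in siHAND2 (adjusted p = 0.00782). The siMYCN call was lost without siCTR replicate 1 (-0.17, adjusted p = 0.0999), siCTR replicate 2 (-0.20, adjusted p = 0.0715) or siMYCN replicate 2 (-0.16, adjusted p = 0.113), with no filter on low values (adjusted p = 0.0683) and with no intensity trend (adjusted p = 0.0857), and quantile normalization ended both calls (-0.07, adjusted p = 0.475, in siMYCN and -0.17, adjusted p = 0.0696, in siHAND2). Of the 7 box C/D and scaffold genes, 6 fell in siMYCN, beside 11.4% of all tested genes, and 4 in siHAND2, beside 11.8%. In siHAND2 against siMYCN 3 were higher, beside 11.4%.

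The U3 snoRNP and the UTP complexes bind the precursor RNA early, to form the small subunit processome. RRP9 (chr3:51933429-51941904), a protein of the U3 particle, was at 40.7, 38.6 and 39.2 CPM with siCTR, 28.9, 25.3 and 24.8 CPM with siMYCN and 29.1, 29.6 and 24.0 CPM with siHAND2. Both knockdowns lay wholly below siCTR and overlapped each other. RRP9 fell by 0.57 ± 0.08 in siMYCN (limma, adjusted p = 2.84e-05) and by 0.51 ± 0.08 in siHAND2 (adjusted p = 9.36e-05). IMP4 (chr2:130342877-130347967), which links U3 to the precursor, was at 66.1, 66.5 and 65.3 CPM with siCTR, 50.5, 47.0 and 48.9 CPM with siMYCN and 54.0, 50.1 and 50.7 CPM with siHAND2. Its knockdown libraries also overlapped, below siCTR. IMP4 fell by 0.43 ± 0.05 in siMYCN (limma, adjusted p = 4.81e-06) and by 0.35 ± 0.05 in siHAND2 (adjusted p = 3.90e-05).

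WDR75 (chr2:189441446-189475552), a UTP protein that also acts in transcription of the precursor, showed another pattern. It was at 71.8, 71.1 and 68.9 CPM with siCTR, 56.3, 59.3 and 61.5 CPM with siMYCN and 72.1, 69.8 and 71.4 CPM with siHAND2. The siMYCN libraries were the lowest, and the siHAND2 and siCTR libraries overlapped. WDR75 fell by 0.26 ± 0.05 in siMYCN (limma, adjusted p = 0.000430), its log2 fold change in siHAND2 was 0.01 (95% interval -0.09 to 0.11, adjusted p = 0.895), and the direct difference was 0.27 ± 0.05 (adjusted p = 0.000357). Of the 11 genes of this role, 10 fell in siMYCN (median -0.30), beside 11.4% of all tested genes, and 5 in siHAND2 (median -0.14), beside 11.8%. In siHAND2 against siMYCN 5 were higher, beside 11.4%.

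Other factors of the small subunit include helicases, scaffolds and export factors. RRP12 (chr10:97356358-97426076), which acts in the late maturation and export of precursor particles, was at 48.0, 43.0 and 44.9 CPM with siCTR, 30.8, 27.9 and 29.0 CPM with siMYCN and 32.1, 32.1 and 28.1 CPM with siHAND2. The knockdowns overlapped each other and lay far below siCTR. RRP12 fell by 0.61 ± 0.06 in siMYCN to 64.6% of the siCTR mean (limma, adjusted p = 2.35e-06), and by 0.55 ± 0.06 in siHAND2 to 67.9% (adjusted p = 6.97e-06). UTP20 (chr12:101280105-101386618), a scaffold of the processome, was at 90.0, 87.7 and 93.7 CPM with siCTR, 62.1, 59.2 and 66.3 CPM with siMYCN and 71.4, 73.3 and 76.6 CPM with siHAND2. Its 3 groups did not overlap. UTP20 fell by 0.53 ± 0.05 in siMYCN (limma, adjusted p = 1.03e-06) and by 0.29 ± 0.05 in siHAND2 (adjusted p = 0.000363), and the direct difference was 0.24 (adjusted p = 0.00216).

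DDX21 (chr10:68956170-68985068), an RNA helicase that works with both RNA polymerase I and the processing machinery, was at 384, 373 and 366 CPM with siCTR, 279, 266 and 282 CPM with siMYCN and 292, 284 and 307 CPM with siHAND2. Its siHAND2 libraries lay between the siMYCN and siCTR libraries, close to the former. DDX21 fell by 0.44 ± 0.04 in siMYCN (limma, adjusted p = 1.02e-06) and by 0.35 ± 0.04 in siHAND2 (adjusted p = 1.05e-05), and the direct difference of 0.09 did not pass the threshold (adjusted p = 0.110). Of the 14 other small-subunit genes, 10 fell in siMYCN, beside 11.4% of all tested genes, and 7 in siHAND2, beside 11.8%. In siHAND2 against siMYCN 6 were higher, beside 11.4%.

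PES1, BOP1 and WDR12 form the PeBoW complex, which is needed to mature the RNA of the large subunit. PES1 (chr22:30576625-30607083) was at 106, 106 and 107 CPM with siCTR, 83.2, 77.4 and 81.1 CPM with siMYCN and 86.4, 85.0 and 76.2 CPM with siHAND2. WDR12 (chr2:202874261-203014798) was at 80.6, 78.0 and 77.1 CPM with siCTR, 60.6, 59.7 and 59.5 CPM with siMYCN and 64.6, 65.6 and 68.4 CPM with siHAND2. BOP1 was at 91.2, 93.0 and 84.9 CPM with siCTR, 83.9, 74.7 and 76.2 CPM with siMYCN and 75.2, 75.9 and 65.6 CPM with siHAND2. For all 3 genes both knockdowns lay wholly below siCTR, the knockdowns overlapped for PES1 and BOP1, and for WDR12 the siMYCN libraries lay below the siHAND2 libraries. In siMYCN, PES1 fell by 0.40 ± 0.05 (limma, adjusted p = 1.59e-05), WDR12 by 0.38 ± 0.04 (adjusted p = 5.51e-06) and BOP1 by 0.20 ± 0.06 (adjusted p = 0.0199). In siHAND2, PES1 fell by 0.36 ± 0.05 (limma, adjusted p = 4.07e-05), BOP1 by 0.31 ± 0.06 (adjusted p = 0.00106) and WDR12 by 0.24 ± 0.04 (adjusted p = 0.000488).

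The direct difference between the knockdowns was 0.14 for WDR12 (limma, adjusted p = 0.0247), 0.03 for PES1 (95% interval -0.07 to 0.14) and -0.12 for BOP1 (95% interval -0.25 to 0.01). The siMYCN call of BOP1 was lost without siCTR replicate 1 (-0.18, adjusted p = 0.0671), siCTR replicate 2 (-0.17, adjusted p = 0.0881), siMYCN replicate 2 (-0.16, adjusted p = 0.0853) or siMYCN replicate 3 (-0.18, adjusted p = 0.0691), and with no intensity trend (adjusted p = 0.0658). The direct call of WDR12 was lost without any 1 siMYCN library or siHAND2 replicate 3 (0.12 to 0.15, adjusted p = 0.0526 to 0.0719), and when those groups were fitted alone (adjusted p = 0.0590).

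**Figure D4:**
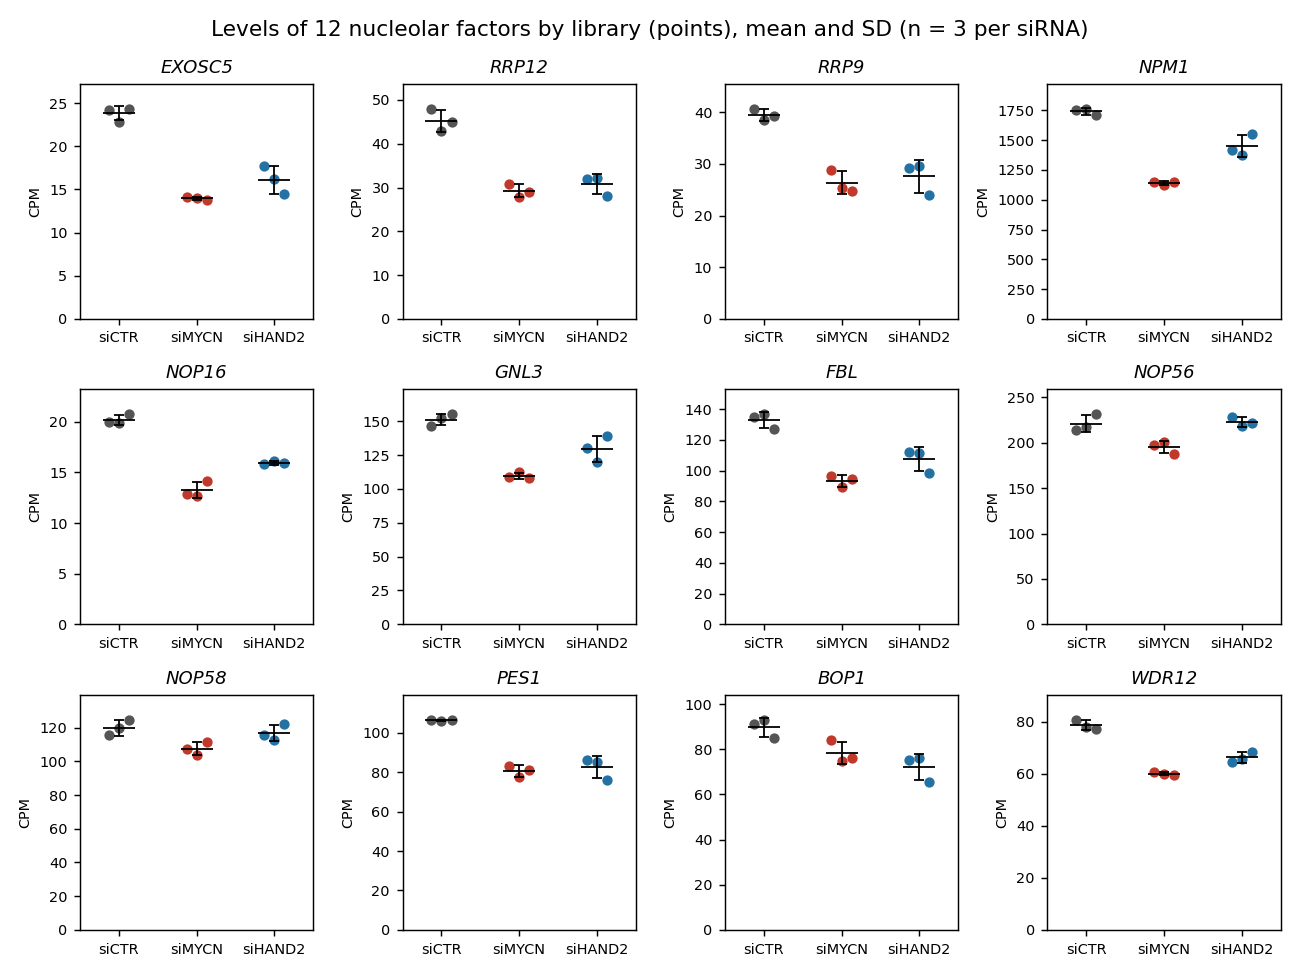
CPM (vertical axes, from 0) of EXOSC5, RRP12, RRP9, NPM1, NOP16, GNL3, FBL, NOP56, NOP58, PES1, BOP1 and WDR12 by siRNA. Points are single libraries, and the bars show mean and SD (n = 3). The siMYCN points lie below the siCTR points for all 12 genes, and the siHAND2 points of NOP56 and NOP58 overlap those of siCTR.

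The large subunit has many more factors. NOP16 (chr5:176383938-176388927), a nucleolar protein of the early large-subunit particles, was at 20.0, 19.8 and 20.7 CPM with siCTR, 12.9, 12.7 and 14.1 CPM with siMYCN and 15.8, 16.1 and 15.9 CPM with siHAND2. The 3 groups did not overlap. NOP16 fell by 0.57 ± 0.06 in siMYCN (limma, adjusted p = 4.06e-06) and by 0.32 ± 0.06 in siHAND2 (adjusted p = 0.00104), and the direct difference was 0.25 ± 0.06 (adjusted p = 0.00740). GNL3 (nucleostemin, chr3:52681156-52694497), a nucleolar GTPase of growing cells, was at 146, 152 and 155 CPM with siCTR, 108, 112 and 108 CPM with siMYCN and 129.8, 119.8 and 139 CPM with siHAND2. Its groups did not overlap either. GNL3 fell by 0.46 ± 0.05 in siMYCN (limma, adjusted p = 3.58e-06) and by 0.22 ± 0.05 in siHAND2 (adjusted p = 0.00312), with a direct difference of 0.24 (adjusted p = 0.00201).

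GRWD1 (chr19:48445841-48457022), a WD-repeat protein that acts as a chaperone, was at 35.1, 33.3 and 35.6 CPM with siCTR, 29.2, 27.3 and 28.5 CPM with siMYCN and 34.2, 35.1 and 31.9 CPM with siHAND2. The siMYCN libraries were the lowest, and the siHAND2 and siCTR libraries overlapped. GRWD1 fell by 0.28 ± 0.06 in siMYCN (limma, adjusted p = 0.000929), had a log2 fold change of -0.04 in siHAND2 (95% interval -0.16 to 0.08, adjusted p = 0.647) and differed directly by 0.24 (adjusted p = 0.00357). PPAN (chr19:10106362-10112012), the human homolog of fly peter pan, was at 34.4, 33.2 and 34.1 CPM with siCTR, 28.9, 26.1 and 27.9 CPM with siMYCN and 29.3, 25.8 and 24.5 CPM with siHAND2. Both knockdowns lay below siCTR and overlapped. PPAN fell by 0.29 ± 0.07 in siMYCN (limma, adjusted p = 0.00273) and by 0.35 ± 0.07 in siHAND2 (adjusted p = 0.000750), and since it shares its strand and bases with the readthrough gene PPAN-P2RY11, the division of reads between them is uncertain. Of the 19 other large-subunit genes, 17 fell in siMYCN (median -0.27), beside 11.4% of all tested genes, and 12 in siHAND2 (median -0.22), beside 11.8%. In siHAND2 against siMYCN 8 were higher, beside 11.4%.

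EXOSC5 (chr19:41386374-41397359), a core subunit of the RNA exosome, had the largest fall of the 58 in siMYCN. It was at 24.2, 22.9 and 24.3 CPM with siCTR, 14.1, 14.0 and 13.8 CPM with siMYCN and 17.7, 16.2 and 14.4 CPM with siHAND2. The siMYCN libraries were the lowest and the siHAND2 libraries came between them and siCTR, with siHAND2 replicate 3 close to siMYCN. EXOSC5 fell by 0.73 ± 0.07 in siMYCN, to 58.6% of the siCTR mean (limma, adjusted p = 1.21e-06), and by 0.54 ± 0.07 in siHAND2, to 67.6% (adjusted p = 2.52e-05). Its direct difference of 0.19 (adjusted p = 0.0612) passed the threshold without siHAND2 replicate 3 (0.26, adjusted p = 0.00769). MYBBP1A (chr17:4538897-4555631), a nucleolar regulator of RNA polymerase I transcription, was at 60.6, 55.5 and 55.8 CPM with siCTR, 44.3, 36.5 and 37.8 CPM with siMYCN and 46.6, 47.2 and 41.7 CPM with siHAND2.

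Both knockdowns of MYBBP1A lay below siCTR and overlapped each other. MYBBP1A fell by 0.53 ± 0.07 in siMYCN (limma, adjusted p = 2.29e-05) and by 0.34 ± 0.07 in siHAND2 (adjusted p = 0.00151). Its direct difference of 0.19 (adjusted p = 0.0530) passed the threshold without siMYCN replicate 1 (0.27, adjusted p = 0.00600) and without siHAND2 replicate 3 (0.25, adjusted p = 0.0149). All 4 genes of this last role (EXOSC5, LYAR, MYBBP1A and PA2G4) fell in siMYCN, beside 11.4% of all tested genes, and 3 fell in siHAND2, beside 11.8%. In siHAND2 against siMYCN 1 was higher, beside 11.4%.

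**Figure D5:**
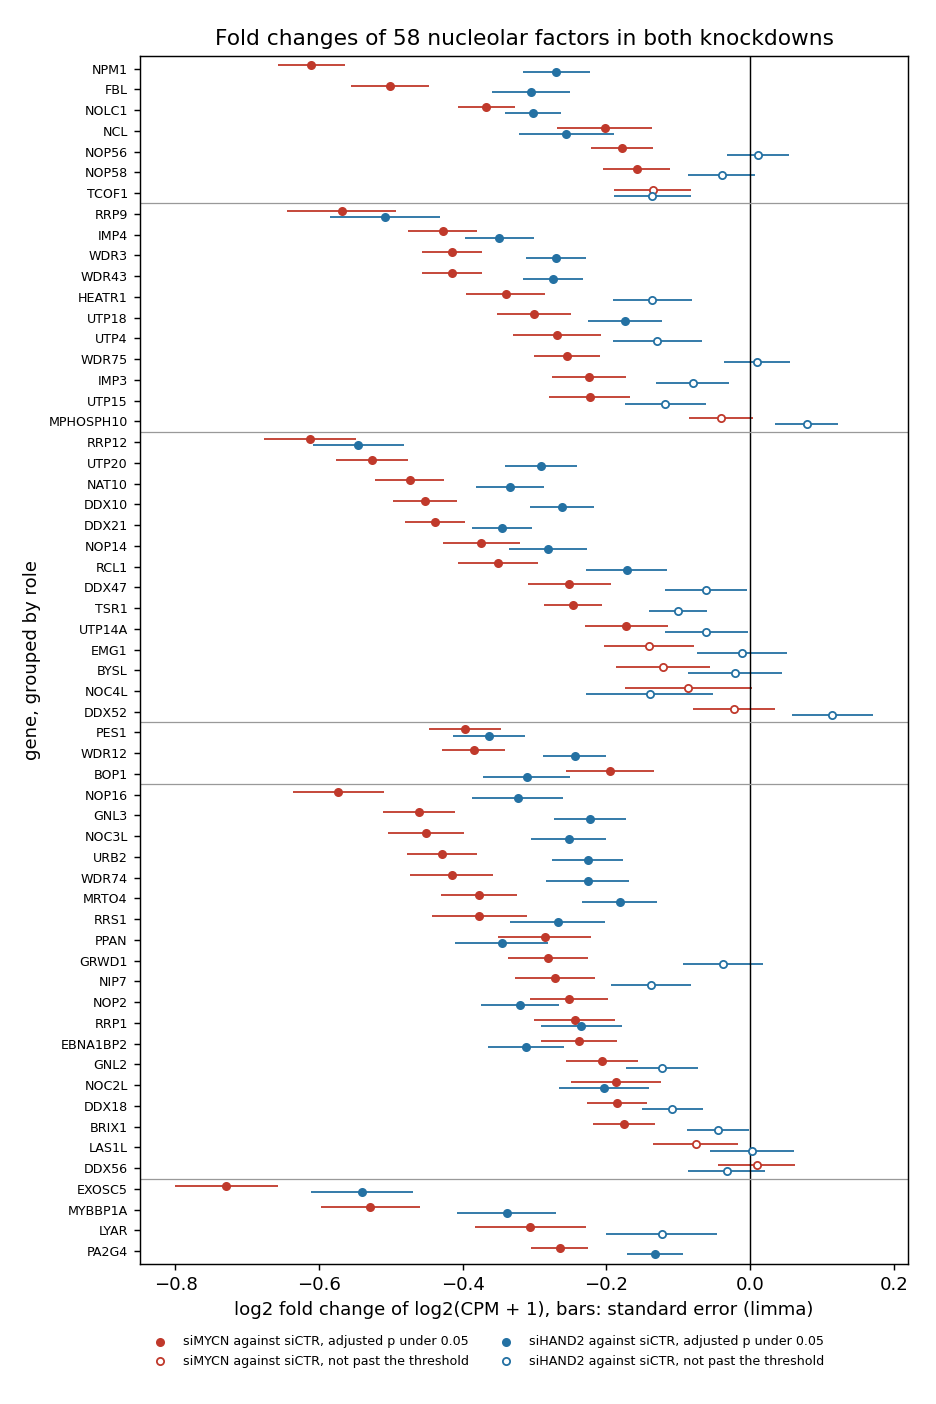
Log2 fold change of each of the 58 genes against siCTR (horizontal axis, bars are standard errors of limma), grouped by role, in siMYCN and siHAND2, which share the siCTR libraries. Filled points passed an adjusted p of 0.05 (50 in siMYCN and 34 in siHAND2), and open points did not.

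The 8 genes that did not pass in siMYCN were BYSL, DDX52, DDX56, EMG1, LAS1L, MPHOSPH10, NOC4L and TCOF1, with log2 fold changes of -0.14 to 0.01 and interval bounds from -0.27 to 0.12. The 24 that did not pass in siHAND2 had log2 fold changes of -0.14 to 0.11 and interval bounds from -0.33 to 0.23. Missing the threshold does not show that these genes were unchanged. Beside NOP56, WDR75 and GRWD1 above, the 24 genes higher in siHAND2 than in siMYCN included HEATR1 and TSR1, a UTP scaffold and a GTPase-like factor of the small subunit, and their direct differences ran from 0.13 to 0.34. The 34 that did not pass in that comparison ranged from -0.12 to 0.19.

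Split by the promoter windows, 22 of the 23 genes with CACGTG fell in siMYCN (median -0.40), 21 of the 25 with a window but no copy did (median -0.25), and 7 of the 10 without a window did (median -0.19). In siHAND2 the counts were 18 of 23 (median -0.28), 11 of 25 (median -0.14) and 5 of 10 (median -0.18). In siHAND2 against siMYCN, 8 of 23, 15 of 25 and 1 of 10 were higher. Among the 8 genes with the largest falls in siMYCN, EXOSC5, RRP9, MYBBP1A, UTP20 and FBL have windows with CACGTG. NPM1 and NOP16 have windows without it, and RRP12 has no window. Over all tested genes, those with CACGTG were called lower in 21.1% of 1325 in siMYCN and 20.9% in siHAND2, those with a window but no copy in 10.9% and 11.7% of 9039, and those without a window in 9.39% and 9.08% of 4131. In siHAND2 against siMYCN the shares called higher were 12.2%, 11.7% and 10.4%. These are counts in chosen genes with no test.

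A further 76 ribosome biogenesis factors were compared as a list. In siMYCN 47 fell (61.8%) and 2 rose (RBM28 and RRP36, 2.63%), beside 11.4% and 24.5% of all tested genes, with a median of -0.18. In siHAND2 36 fell (47.4%), beside 11.8% of all tested genes, and none rose in limma, beside 18.1%, with a median of -0.14. At an unadjusted limma p under 0.05, 44 were lower and 1 higher, beside 2256 and 3625 of all 14495 tested genes. In siHAND2 against siMYCN 11 were higher (14.5%) and 2 (RBM28 and SBDS, 2.63%) lower, beside 11.4% and 15.5% of all tested genes, with a median of 0.05. Their summed level was 5523 ± 30.1 CPM in siCTR, 4800 ± 59.1 CPM in siMYCN and 4972 ± 25.7 CPM in siHAND2 (SD, n = 3), and the groups did not overlap.

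DKC1, UTP25 and WDR46 are the list members with the 2 smallest p-values in 1 or both of the knockdowns against siCTR. DKC1 (dyskerin), the pseudouridine synthase of the box H/ACA snoRNPs, was at 141, 144 and 139 CPM with siCTR, 108, 105 and 105 CPM with siMYCN and 115, 112 and 112 CPM with siHAND2. Its 3 groups did not overlap, and it fell by 0.41 in siMYCN (limma, adjusted p = 9.37e-07) and by 0.32 in siHAND2 (adjusted p = 9.83e-06). UTP25, a processome factor, fell by 0.51 in siMYCN (limma, adjusted p = 6.56e-07), from 52.7 ± 0.110 to 36.6 ± 0.471 CPM (SD, n = 3). WDR46, another processome protein, fell by 0.38 in siHAND2 (limma, adjusted p = 3.07e-05), from 55.0 ± 0.720 to 42.1 ± 1.56 CPM (SD, n = 3).

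Lists of other kinds were read in the same libraries. The 15 proliferation markers summed to 3988 to 4088 CPM in siCTR, 4054 to 4098 CPM in siMYCN and 4040 to 4175 CPM in siHAND2, which overlap, with none at 0. Of these 15, 2 fell (13.3%, beside 11.4% of all tested genes) and 1 rose (6.67%, beside 24.5%) in siMYCN, and 1 fell (6.67%, beside 11.8%) and 3 rose (20.0%, beside 18.1%) in siHAND2. The 12 neuroblastoma markers summed to 2793 to 2944 CPM in siCTR, 3469 to 3583 CPM in siMYCN and 3017 to 3166 CPM in siHAND2, with none at 0. In siMYCN 10 of them rose (83.3%, beside 24.5% of all tested genes) and none fell (beside 11.4%). At an unadjusted limma p under 0.05, 11 were higher and 0 lower, beside 4440 and 2047 of all 14495 tested genes. In siHAND2 4 of the 12 rose (33.3%, beside 18.1%) and 3 fell (25.0%, beside 11.8%). The 9 markers of other cell types summed to 92.3 to 97.9 CPM in siCTR, 102 to 109.9 CPM in siMYCN and 169 to 204 CPM in siHAND2, nearly all of it PDGFRB. The part of these shifts in the fall of the nucleolar factors was not tested.

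Within the groups, siMYCN replicate 1 had the highest value of its group for 33 of the 58 genes and siMYCN replicate 2 the lowest for 31. In siHAND2, replicate 3 was the lowest of its group for 25 genes and the highest for 22. Of the 58 genes, 31 overlap another gene of the table, 27 of them on the other strand, and whether counting used strand is not given in the sources used here. Among those of the 58 given with values in every library, GNL3 overlaps PBRM1 and GLT8D1 on the other strand, at a mean of 287 and 30.8 CPM. NOP16 overlaps ARL10 and HIGD2A on the other strand, at 31.7 and 28.5 CPM, and WDR12 overlaps CARF there, at 17.7 CPM. PES1, MYBBP1A, BOP1, NOP58, RRP12 and EBNA1BP2 also overlap genes on the other strand, at means of at most 1.29 CPM.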

How the data were processed

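The authors deposited 1 table of CPM values over 25084 genes and 9 libraries of total RNA (3 per siRNA). Every value holds a constant of 0.0001, and each column sums to 1000002.4 to 1000002.6. STAR 2.5.1, Partek and the builds hg19 and GRCh37 are named, per the submitters' processing notes, but 91.4% of gene starts lie within 5000 bp of RefSeq starts in GRCh38 and 5.62% within that distance of GRCh37 starts, so positions are given as GRCh38. The annotation, the use of strand and the rule for reads that fit several genes are not given in the sources used here.

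Only 79.0% to 80.5% of low values were whole multiples of a read step (within 0.02), so no count model was used. The counting error at 1 CPM is 17.5% to 21.8%; it covers counting error only. Values were tested as log2(CPM + 1), with genes of at least 1 CPM in 3 libraries (14495 kept, 10589 left out), in 3 two-sided contrasts of limma 3.58.1 (R 4.3.3; eBayes with an intensity trend). Tested on simulated data for siMYCN against siCTR (dispersion 0.005), the fit called 11.5% of 200 genes changed by 0.25 (log2) among 14392. It called 89.5% at 0.5 among 14364 and 100% at 1 among 14381, and false calls were 8%, 4.28% and 5.21% of all calls. With only 200 changed genes, beside 5209 called in the data, the adjusted threshold is harder to pass there. These shares therefore do not give the share found in the data.

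Genes given with values in every library were MYCN, HAND2, the PeBoW and box C/D core proteins, NCL and NPM1. Added to these were the 8 largest called falls in each knockdown and the 5 largest called direct differences. From the 76 other factors, the 2 with the smallest p in each knockdown are named. DKC1, among them in both, has values in every library. MPHOSPH10 and EBNA1BP2 were chosen after their values were seen. The genes and lists were chosen with earlier results of these data known. Beside the 9 markers of other cell types, 1 further planned marker is not reported here. Same-numbered replicates deviated together from their group means in siCTR and siMYCN (correlations 0.102 to 0.215) and in siCTR and siHAND2 (0.121 to 0.266). Differently numbered replicates were at -0.196 to 0.0397 and at -0.273 to 0.179. The highest of these, siCTR replicate 2 with siHAND2 replicate 1, exceeded same-numbered replicates 1 (0.154) and 2 (0.121). By the rule used, with every same-numbered pair above 0.1, these contrasts met the condition for pairing by number. The siMYCN and siHAND2 libraries did not, at -0.129 to 0.434 for same-numbered and -0.437 to 0.219 for differently numbered replicates. Whether the numbers pair libraries across all 3 groups is therefore not settled. The main fit has no term for pairing by number, so the p-values above do not use it. Such pairing enters only in the replicate block. Alternatives were pseudocounts of 0.1 and 5, no filter, a filter of 5 CPM, median-ratio scaling, quantile normalization, each pair of groups alone, no intensity trend, a replicate block and each library left out in turn.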

Additional observations from a re-analysis of the deposited data

How the results depend on the processing

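The 50 siMYCN, 34 siHAND2 and 24 direct calls became 47 to 52, 31 to 41 and 16 to 32 under the 9 alternative settings, and 46 to 51, 30 to 36 and 16 to 22 with 1 library left out. Of them 45, 28 and 12 were called under every setting tried. With the replicate block the counts were 51, 37 and 31, and every main call was kept. The shares of all tested genes were then 13.0%, 13.4% and 14.3%. Same-numbered siMYCN and siHAND2 libraries did not all deviate together (correlations -0.129 to 0.434), so whether the block joins true pairs is not settled. With it the direct differences of NOP58, EXOSC5 and MYBBP1A passed the threshold (limma, adjusted p = 0.0257, 0.0410 and 0.0103), as they and DDX21 did with quantile normalization. The siMYCN median was -0.25 at pseudocount 5, -0.34 with median-ratio scaling and -0.33 with quantile normalization, and the siHAND2 median was -0.20 and -0.26 in the first 2 of these. With 1 library left out, the siHAND2 median ran from -0.22 to -0.19; the cause was not tested.

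Some differences near 0, none past the threshold, changed sign. NOP56 in siHAND2 against siCTR was -0.032 with median-ratio scaling and -0.011 with quantile normalization, and WDR75 in that contrast -0.033 and -0.018. With 1 library left out, siHAND2 against siCTR ran from -0.011 to 0.044 for NOP56 (below 0 without siCTR replicate 1 or siHAND2 replicate 1), from -0.0077 to 0.022 for WDR75 (below 0 without siCTR replicate 3 or siHAND2 replicate 1) and from -0.067 to 0.00056 for GRWD1 (above 0 without siHAND2 replicate 3). In siHAND2 against siMYCN, it ran from -4.6e-05 to 0.089 for PES1 (below 0 without siHAND2 replicate 1) and from -0.12 to 0.032 for NCL (above 0 without siHAND2 replicate 3). Scaling moved the share of higher genes among all called genes, from 68.3% to 50.8% (median-ratio) and 49.3% (quantile) in siMYCN, from 60.6% to 46.1% and 47.8% in siHAND2, and from 42.4% to 48.9% and 51.9% in the direct contrast. The nucleolar factors called were 52 and 52 lower in siMYCN, 41 and 39 lower in siHAND2 and 28 and 32 higher in the direct contrast under these scalings. Of all tested genes, 16.2% and 16.5% were then called lower in siMYCN and 15.8% and 14.9% in siHAND2. In the direct contrast 13.3% and 14.3% were called higher. In the main fit these shares were 11.4%, 11.8% and 11.4%. As to depth, 1 CPM is worth 21.1 to 32.7 reads, and the lowest mean among the 58 genes is 16.5 CPM (NOP16).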
